A study of Homo sapiens with 6 samples.

Results

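RNPC3, SNRNP25, SNRNP35, SNRNP48, PDCD7, ZMAT5, ZCRB1, CRIPT, SCNM1 and RBM48 encode 10 proteins of the human minor spliceosome other than ZRSR2, the protein depleted in the study. The genes were chosen by name, with earlier results of these data known, and that choice also named RNPC3 intron 13 by its position. Their introns are the 57 of 241593 listed introns that lie inside 1 of these genes on its strand. The libraries came from K562, a human chronic myeloid leukaemia line with erythroid features, carrying one of 2 shRNAs against ZRSR2 (sh1 and sh2) or a control shRNA (Con_sh). Each group held 2 polyA RNA-seq libraries, numbered as experiments 1 and 2, and all 3 groups share the K562 background and the transduction. Nothing in the labels says that the experiments were separate cultures, so the p-values measure the spread between these libraries alone. The 10 genes are part of 17615 genes whose spliced reads could be tested.

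The minor spliceosome removes U12-type introns, a small class found in otherwise ordinary genes. Its U11 and U12 particles act as 1 joint particle, in which U11 pairs with the 5′ splice site, U12 pairs with the branch site and a set of proteins bridges them. ZRSR2 acts at the 3′ splice site of these introns. RNPC3 binds the U12 RNA, SNRNP35 belongs to the U11 side, PDCD7 links the U11 side to RNPC3, and SNRNP48 helps to recognise the 5′ splice site. SNRNP25, ZMAT5 and ZCRB1 are further proteins of the joint particle, whereas SCNM1, CRIPT and RBM48 are found in the minor spliceosome after its activation. The messages of RNPC3 and SNRNP48 are themselves known to carry an element that the U11 particle binds.

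Spliced counts summed over all listed introns ran between 82986327 and 101120454 per library. Listed introns can overlap, so this sum can count a read more than once. Over the non-overlapping introns summed per gene it ran between 75965320 and 92685960. ZRSR2 had 10.6 and 10.7 CPM in sh1, 10.3 and 12.8 CPM in sh2 and 27.9 and 23.6 CPM in control libraries, where CPM is spliced reads per 1000000 after TMM scaling. ZRSR2 was lower in 4 of 4 knockdown libraries than in both controls (log2 fold change -1.21, SE 0.174), with an edgeR adjusted p of 0.571 and a DESeq2 adjusted p of 1.83e-06. K562 identity was visible in GATA1, at 180 to 262 CPM in knockdown and 168 and 185 CPM in control libraries. The 11 listed K562 genes, embryonic and fetal globins included, summed to 11280 and 5065 CPM in sh1, 19090 and 8318 CPM in sh2 and 3800 and 5510 CPM in control. Markers of T, B, epithelial and myeloid cells, of which 9 of 13 could be tested, summed to 119.5 to 157.5 CPM in knockdown and 198.7 and 168.6 CPM in control libraries. The epithelial marker EPCAM supplied most of each sum, at 85.1 and 102.7 CPM in sh1, 93.1 and 120.3 CPM in sh2 and 111.1 and 124.5 CPM in control. It stood above the listed K562 gene TAL1, which had 11.2 to 26.4 CPM over the 6 libraries. Of that list the T cell genes CD3E and CD3D had an unadjusted edgeR p under 0.05, both lower with the knockdown, and PAX5 was at 0 CPM in 3 of the 6 libraries. The part of the globin and marker differences in the results was not tested.

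Retention of the last pair of RNPC3 introns was higher after ZRSR2 knockdown, and no other intron of the 10 genes passed the test in either direction. Retention is the share of unspliced molecules at an intron, computed by the authors from reads crossing its 2 boundaries and reads spliced across it. Over both shRNAs against control, 2 of the 57 introns were called higher and 0 lower at an edgeR quasi-likelihood adjusted p under 0.05. Among all 134078 introns tested, 0.33% were called higher and 0.0209% lower. Because the genes were chosen with earlier results of these data known, this is not an unselected comparison. RNPC3 intron 13, which is 1 of the 2 called introns, was itself named in that choice. All 57 had enough reads to be tested, at 147 to 2701 boundary and spliced reads per library on average. The median log2 change of boundary over spliced reads was 0.20 over the 57 introns and 0.08 over all tested introns. Without adjustment, 4 of the 57 had a p under 0.05, all higher, against 4.44% of all tested introns in either direction.

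**Figure D1:**
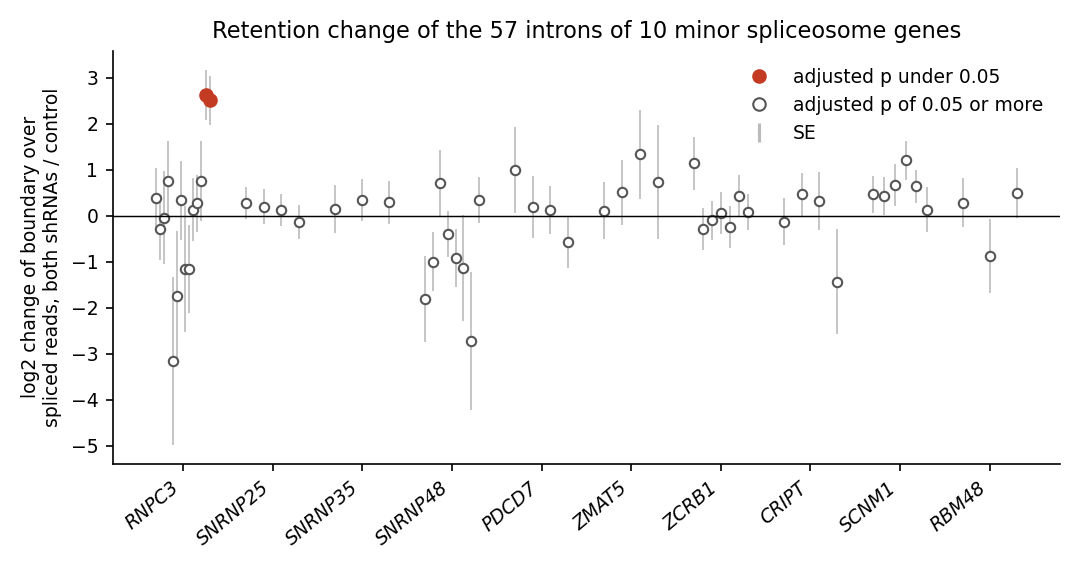
Points show the log2 change of boundary over spliced reads, both shRNAs against control, for each of the 57 introns, placed from 5′ to 3′ within each gene; bars are SE and filled points have an edgeR adjusted p under 0.05. The 2 filled points, at 2.63 and 2.52, are the last introns of RNPC3.

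RNPC3 has 14 listed introns on chromosome 1 in the plus direction. Intron 13 spans chr1:103551074-103551720 (647 nt) and intron 14, the last, spans chr1:103551793-103553273 (1481 nt), with a 72 nt exon between them and a 133 nt exon before intron 13. These positions match GRCh38 gene models, although the submitters' processing notes name hg19. Intron 13 was retained at 38.5% and 28.2% in sh1, at 33.8% and 21.5% in sh2 and at 7.49% and 5.63% in control libraries. Every knockdown library lay above both control libraries, and within each shRNA the experiment 1 library was the higher. The log2 change was 2.63 (SE 0.553, edgeR adjusted p = 8.98e-04), higher in 4 of 4 knockdown libraries.

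Intron 14 was retained at 41.4% and 25.2% in sh1, at 46.5% and 25.6% in sh2 and at 11.4% and 5.76% in control libraries. The group means were 33.3% ± 11.4 in sh1, 36.1% ± 14.8 in sh2 and 8.59% ± 3.998 in control (SD, n = 2 each). Here too no knockdown library overlapped a control library, the lowest knockdown value being 25.2% and the highest control value 11.4%. The log2 change was 2.52 (SE 0.533, edgeR adjusted p = 0.00103). Within experiment 1, both introns stood at 33.8% to 46.5% in knockdown against 7.49% and 11.4% in control, and within experiment 2 at 21.5% to 28.2% in knockdown against 5.63% and 5.76% in control. Both calls were lost without the control replicate 2 library, at edgeR adjusted p = 0.194 for intron 13 and 0.481 for intron 14, and the call of intron 14 also without the sh2 replicate 1 library (0.0758) or among introns with a mean covered fraction of at least 0.95 (0.0616). Replacing both boundary counts by the smaller one, doubled, left neither call (edgeR adjusted p = 1 for both), at log2 changes of 2.74 and 2.56.

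**Figure D2:**
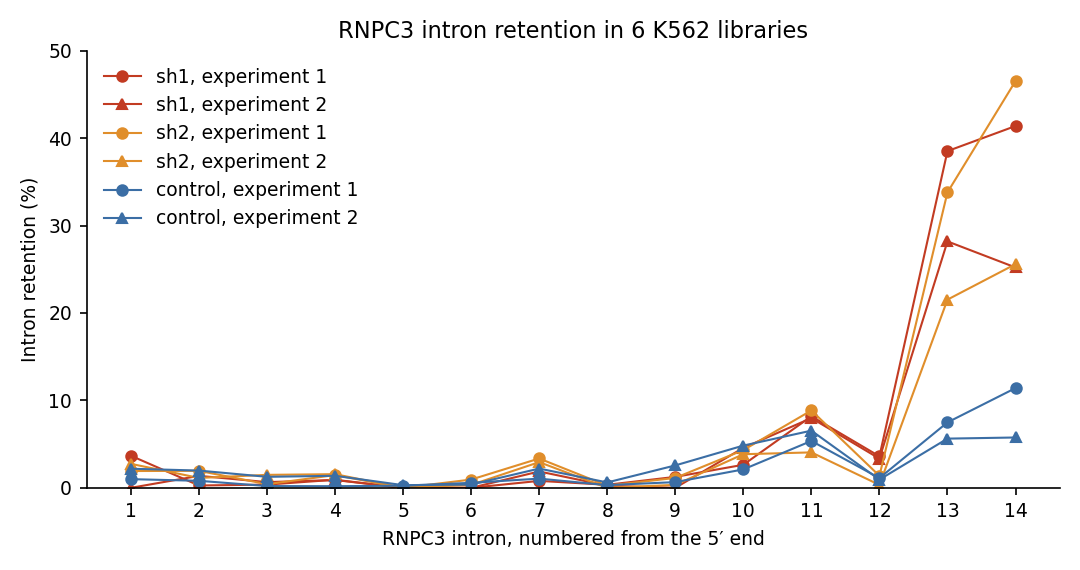
Retention (%) is drawn for each of the 14 RNPC3 introns from 5′ to 3′ in the sh1, sh2 and control libraries, circles for experiment 1 and triangles for experiment 2. Introns 13 and 14 lie at 21.5% to 46.5% in the 4 knockdown libraries and at 5.63% to 11.4% in the 2 control libraries, and introns 1 to 12 stay under 9% in all 6.

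The read counts behind these values were modest. Intron 13 had 203 and 95 boundary reads in sh1, 144 and 73 in sh2 and 28 and 21 in control libraries, beside 162 and 121 spliced reads in sh1, 141 and 133 in sh2 and 173 and 176 in control. Intron 14 had 233 and 91 boundary reads in sh1, 221 and 108 in sh2 and 42 and 22 in control libraries, beside 165 and 135 spliced reads in sh1, 127 and 157 in sh2 and 163 and 180 in control. The boundary reads carried most of the difference in both introns, and the spliced reads overlapped more closely between groups. RPM is reads per 1000000 spliced reads of the library, summed over all listed introns. In RPM, boundary reads of intron 13 averaged 1.70 ± 1.06 in sh1, 1.25 ± 0.590 in sh2 and 0.266 ± 0.0827 in control. Its spliced reads averaged 1.58 ± 0.525 in sh1, 1.57 ± 0.0820 in sh2 and 1.87 ± 0.188 in control (SD, n = 2 each). On this scale the sh1 library of experiment 1, at 1.95, lay between the controls, at 2.01 and 1.74. For intron 14 the boundary reads averaged 1.86 ± 1.34 in sh1, 1.89 ± 0.938 in sh2 and 0.352 ± 0.190 in control, and the spliced reads 1.67 ± 0.452 in sh1, 1.63 ± 0.226 in sh2 and 1.84 ± 0.0778 in control. The exact permutation p, two-sided over the 4 knockdown and 2 control libraries, was 0.133 for boundary reads of either intron, the smallest that the 15 arrangements allow. It was 0.267 for the spliced reads of intron 13 and 0.667 for those of intron 14.

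**Figure D3:**
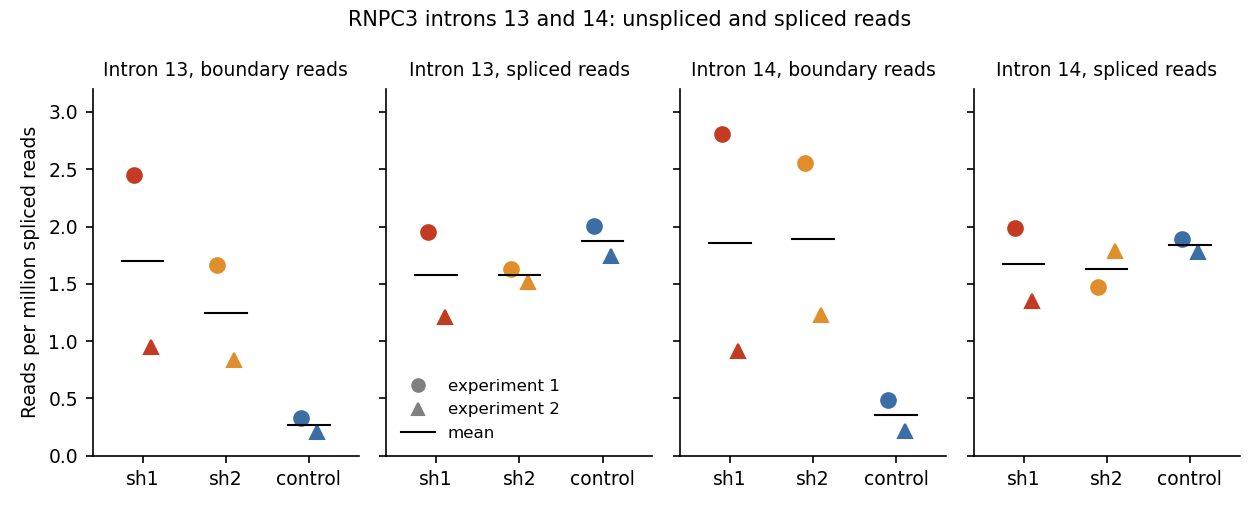
Boundary and spliced reads of RNPC3 introns 13 and 14 are drawn in RPM for sh1, sh2 and control, circles for experiment 1, triangles for experiment 2 and a line for the mean of 2. RPM is reads per 1000000 spliced reads of the library, summed over all listed introns. Boundary reads of intron 13 average 1.70 in sh1, 1.25 in sh2 and 0.266 in control, and those of intron 14 1.86 in sh1, 1.89 in sh2 and 0.352 in control, while the spliced reads lie closer together.

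Reads crossed both ends of the 2 introns about equally. In sh1 intron 13 had 80 reads at its 5′ end and 123 at its 3′ end in the first library and 51 and 44 in the second. In sh2 the counts were 72 at each end and then 31 at the 5′ and 42 at the 3′ end, and in control 10 and 18, then 11 and 10. Over all libraries 45.2% of the boundary reads of intron 13 and 44.8% of those of intron 14 lay at the 5′ end. Both introns were read over their whole length, with a covered fraction of 1 in all 6 libraries. Together they held 80.6% and 69.9% of RNPC3's boundary reads in sh1, 79.2% and 73.3% in sh2 and 58.8% and 33.6% in control libraries.

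None of the other 12 RNPC3 introns was called. Their median retention was 0.817% ± 0.0613 in sh1, 1.36% ± 0.0760 in sh2 and 1.20% ± 0.670 in control (SD, n = 2 each; exact permutation p = 0.8). Intron 12, the neighbour of intron 13 at chr1:103547036-103550940 (3905 nt), was retained at 3.604% and 3.34% in sh1, 1.37% and 0.334% in sh2 and 1.12% and 0.940% in control libraries. Both sh1 libraries stood above both controls there, the sh2 libraries lay on either side of them, and the log2 change over both shRNAs was 0.76 (SE 0.879, edgeR adjusted p = 1). Among introns 1 to 12, intron 11 had the highest mean retention, at 8.19% and 7.98% in sh1, 8.85% and 4.05% in sh2 and 5.36% and 6.54% in control, and its groups overlapped. The mean spliced reads of introns 13 and 14, relative to those of introns 1 to 12, were 0.682 and 0.644 in sh1, 0.672 and 0.833 in sh2 and 0.821 and 1.05 in control libraries (unpaired exact permutation p = 0.267). Within each experiment both knockdown libraries were below their control in this ratio and in the RPM of spliced reads of intron 13, but not in those of intron 14. No pair of listed RNPC3 or SNRNP48 introns shared an end, so alternative junctions at the U11-bound element were not measured here.

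Each shRNA gave the 2 RNPC3 calls on its own. With sh1 against control, 2 of the 57 introns were called higher and 0 lower (all tested introns: 0.292% and 0.0104%), at log2 changes of 2.83 for intron 13 (edgeR adjusted p = 0.00307) and 2.44 for intron 14 (0.0218). With sh2 against control the counts were again 2 and 0 (all tested introns: 0.266% and 0.0201%), at log2 changes of 2.43 for intron 13 (edgeR adjusted p = 0.0419) and 2.595 for intron 14 (0.00902). The contrasts share their control libraries. The shRNAs compared with each other gave 0 calls of 57 (all tested introns: 0.0246% higher and 0.0097% lower), with 3 of the 57 at an unadjusted p under 0.05 (3.82% of all tested introns). The sh1 over sh2 difference was 0.40 (SE 0.595) for intron 13 and -0.16 (SE 0.579) for intron 14 on the log2 scale, both with an edgeR adjusted p of 1. Neither sh1 call held without the sh1 replicate 1 library (edgeR adjusted p = 0.513 and 1 for introns 13 and 14) or the control replicate 2 library (0.192 and 0.807), and neither sh2 call without the sh2 replicate 1 library (1 and 1) or the control replicate 2 library (0.672 and 0.699). The sh2 call of intron 13 was also lost without the sh2 replicate 2 library (0.0587) or the control replicate 1 library (0.214).

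The spliced RNA of RNPC3 as a whole overlapped between groups. Summed over its 14 introns it stood at 41.3 and 28.9 CPM in sh1, 33.4 and 30.4 CPM in sh2 and 35.1 and 25.9 CPM in control libraries. The log2 fold change was 0.13 (SE 0.210, edgeR adjusted p = 0.882) and turned to -0.06 without the control replicate 2 library and to -0.0083 without the sh1 replicate 1 library.

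None of the 10 genes was called for its level of spliced RNA. The edgeR test called 0 of the 10 genes over both shRNAs, with either shRNA alone or between the shRNAs, and 0 of all 17615 genes (0%) in each contrast. Over both shRNAs 1451 of those genes had an unadjusted edgeR p under 0.05. Over both shRNAs DESeq2 called none of the 10 either, against 0.858% of genes higher and 0.503% lower. The unadjusted edgeR p was under 0.05 for SNRNP48, which was higher, and for SCNM1, which was lower, beside 4.39% and 3.84% of all genes in these directions. The median log2 fold change was 0.17 over the 10 genes and -0.01 over all genes. In 2 of the 10 genes, SNRNP35 and CRIPT, all 4 knockdown libraries lay above both control libraries (10% of all genes), and in 1, SCNM1, all 4 lay below (9.54% of all genes). In RNA from a whole culture, fewer cells with a message and less message per cell cannot be told apart.

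**Figure D4:**
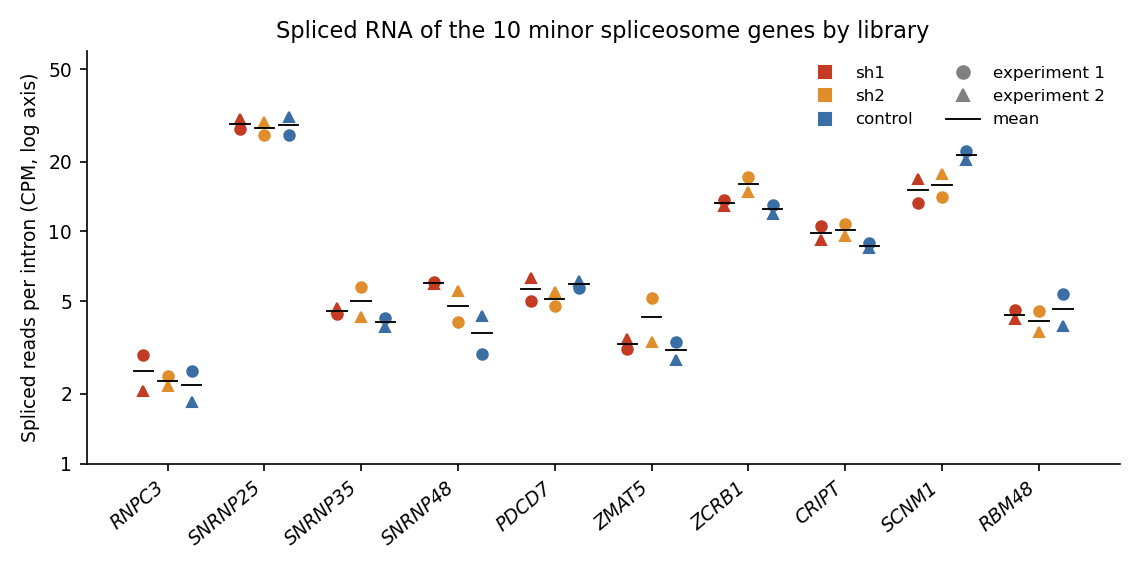
Spliced reads (CPM, log axis), divided by the number of introns summed, are drawn for the 10 genes in sh1, sh2 and control libraries, circles for experiment 1, triangles for experiment 2 and lines for the mean of 2. The 4 SCNM1 knockdown values lie under both control values, and SNRNP48 lies higher in both sh1 libraries than in both controls.

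Per intron, SNRNP25 was the most abundant of the 10, at 26.1 to 30.5 CPM in knockdown and 26.0 and 31.2 CPM in control libraries. SCNM1 followed, at 13.2 to 17.6 CPM per intron in knockdown and 22.3 and 20.3 in control libraries. ZCRB1 stood at 12.8 to 17.1 CPM per intron in knockdown and 13 and 11.9 in control libraries, and CRIPT at 9.20 to 10.8 in knockdown and 8.90 and 8.47 in control. The ranges of SCNM1 and ZCRB1 overlapped in knockdown libraries and not in control libraries. PDCD7, RBM48, SNRNP35, SNRNP48 and ZMAT5 formed an overlapping middle group between 2.81 and 6.31 CPM per intron over the 6 libraries. RNPC3 was the lowest in each of the 6 libraries, at 2.06 to 2.95 CPM per intron in knockdown and 2.51 and 1.85 in control libraries.

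On the U11 side, SNRNP48 had 48.6 and 47.3 CPM in sh1, 32.4 and 44.1 CPM in sh2 and 23.7 and 34.5 CPM in control libraries. Both sh1 libraries were above both controls, and the lower sh2 library lay between the controls. Against the control library of the same experiment, the log2 ratio was 1.04 for sh1 and 0.46 for sh2 in experiment 1, and 0.45 for sh1 and 0.35 for sh2 in experiment 2. All 8 SNRNP48 introns had more spliced reads (RPM) in each knockdown library than in the control library of its experiment. Introns of 1 gene are not independent, so this repeats the difference of the gene. The log2 fold change over both shRNAs was 0.56 (SE 0.214) with an unadjusted p of 0.0361 and an adjusted p of 0.573 in edgeR. It was 0.32 without the control replicate 1 library and 0.87 without the control replicate 2 library, neither called.

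SNRNP48 retention did not differ beyond the test in any of its 8 introns. The smallest p belonged to intron 1 (chr6:7590414-7593733), retained at 0.176% and 0.0844% in sh1, 0.280% and 0.106% in sh2 and 0.389% and 0.674% in control libraries. All 4 knockdown values were below both control values there, at an edgeR adjusted p of 1. These percentages rest on 2 and 1 boundary reads in sh1, 2 and 1 in sh2 and 2 and 6 in control libraries. Intron 4 (chr6:7595102-7601335, 6234 nt) had the highest retention of the gene, at 9.54% and 5.42% in sh1, 11.9% and 4.51% in sh2 and 12.7% and 7.21% in control, and only 19.2% of its boundary reads lay at the 5′ end. In 3 SNRNP48 introns all knockdown libraries were below both controls and in 1 they were above, beside 4.11% and 7.28% of all tested introns. The 3 had 14, 41 and 59 boundary reads in all libraries together and the 1 had 43.

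SCNM1, a zinc-finger protein first known as a modifier of a sodium channel gene in mice, had the smallest p of the 10 genes. It stood at 79.1 and 101.4 CPM in sh1, 84.0 and 105.9 CPM in sh2 and 133.9 and 122.1 CPM in control libraries. All 4 knockdown libraries were below both controls, and this held for the spliced reads of each of its 6 introns. These introns are read from the messages of 1 gene, so they are not independent and repeat the gene's difference. The log2 ratio to the control of the same experiment was -0.76 for sh1 and -0.67 for sh2 in experiment 1 and -0.27 for sh1 and -0.21 for sh2 in experiment 2. The log2 fold change was -0.47 (SE 0.162), with an edgeR unadjusted p of 0.0247 and adjusted p of 0.571, and a DESeq2 adjusted p of 0.246. With sh1 alone it was -0.50 and with sh2 alone -0.43, and the sh1 over sh2 difference was -0.07 (SE 0.191).

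**Figure D5:**
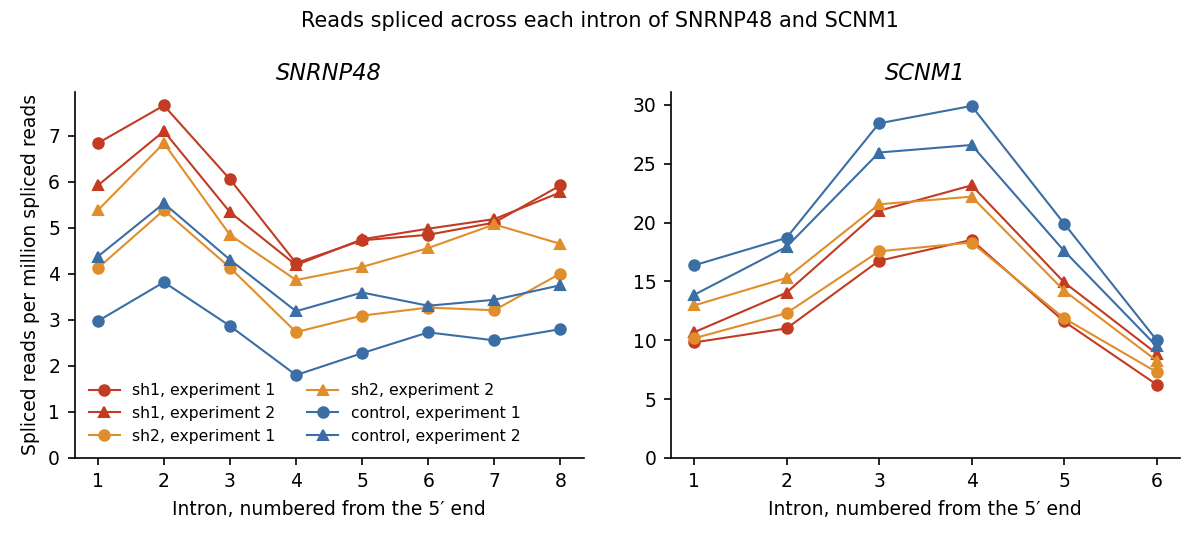
Spliced reads (RPM) are drawn for each intron of SNRNP48 (left) and SCNM1 (right) in sh1, sh2 and control libraries, circles for experiment 1 and triangles for experiment 2. The SCNM1 knockdown lines run below both control lines at all 6 introns; for SNRNP48 each knockdown line runs above the control line of its own experiment at all 8 introns.

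Of the 55 introns that were not called, SCNM1 intron 4 had the smallest adjusted p. This 107 nt intron (chr1:151167219-151167325) was retained at 0.903% and 0.622% in sh1, 0.628% and 0.840% in sh2 and 0.367% and 0.278% in control libraries. The groups did not overlap, but the log2 change of 1.21 (SE 0.428) gave an edgeR adjusted p of 0.533. SCNM1 intron 5 (chr1:151167415-151168143, 729 nt), the most retained of the gene, stood at 8.21% and 4.69% in sh1, 7.70% and 5.99% in sh2 and 4.61% and 3.92% in control libraries (log2 change 0.65, SE 0.357, adjusted p = 1 in edgeR). Its boundary reads overlapped, at an RPM of 2.07 and 1.47 in sh1, 1.98 and 1.81 in sh2 and 1.93 and 1.43 in control. Its spliced reads did not, at an RPM of 11.6 and 14.9 in sh1, 11.9 and 14.2 in sh2 and 19.9 and 17.6 in control. The exact permutation p was 0.133, the smallest that the 15 arrangements allow, so it adds nothing to the lack of overlap. The log2 change was above 0 in all 6 SCNM1 introns, none of them called.

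SNRNP35 had the fewest spliced reads, 4.43 and 4.68 CPM in sh1, 5.75 and 4.29 CPM in sh2 and 4.26 and 3.89 CPM in control libraries (log2 fold change 0.23, SE 0.233, edgeR adjusted p = 0.806). Its 3 listed introns share their 3′ end on chromosome 12 at position 123465537 and start at 3 different first exons, so their reads are not independent. The deposited spliced counts of such nested introns were read as cumulative, the inner count including the outer one, since the inner count was at least the outer one in every library for all 34832 pairs of neighbouring nested introns that share an end. Shares of the first exons were computed from the differences between these counts and hold only on that reading. The farthest first exon supplied 68.2% and 80.1% of the junction reads in sh1, 61.1% and 77.1% in sh2 and 72.2% and 79.1% in control libraries. The middle first exon supplied 24.8% and 17.8% in sh1, 33.0% and 19.6% in sh2 and 22.5% and 16.4% in control, and the nearest between 2.103% and 6.997% in all 6 libraries. These shares overlapped between the groups (exact permutation p = 0.667 and 0.533 for the farthest and middle exon). The intron from the middle exon (chr12:123459901-123465537) had both the smallest p and the highest retention of the gene, 11.4% and 6.79% in sh1, 11.04% and 8.71% in sh2 and 8.83% and 6.28% in control (edgeR adjusted p = 1).

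SNRNP25 had 110.6 and 121.8 CPM in sh1, 104.2 and 118.8 CPM in sh2 and 104.0 and 124.8 CPM in control libraries, with a log2 fold change of -0.0071 (SE 0.140). In each group the experiment 2 library was the higher, and the groups overlapped throughout. Its smallest retention p was at intron 1 (chr16:54059-55458, 1.97% and 1.25% in sh1, 2.82% and 1.01% in sh2, 2.002% and 0.907% in control). Its most retained was intron 3 (chr16:55883-56538), at 3.196% to 3.49% in knockdown and 3.46% and 2.74% in control libraries.

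PDCD7 had 20.1 and 25.2 CPM in sh1, 19.0 and 21.8 CPM in sh2 and 22.9 and 24.4 CPM in control libraries (log2 fold change -0.14, SE 0.169). Its 4 introns averaged under 2% retention, the highest being intron 3 (chr15:65119464-65119717, 254 nt) at 1.17% to 2.95% in knockdown and 1.40% and 1.96% in control. Intron 1 (chr15:65129171-65132911) had its smallest p, at a log2 change of 1.003 (SE 0.934, edgeR adjusted p = 1).

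Of the remaining proteins of the joint particle, ZMAT5 had 12.5 and 13.7 CPM in sh1, 20.7 and 13.3 CPM in sh2 and 13.4 and 11.2 CPM in control libraries. A single sh2 library stood apart from the other 5, and the log2 fold change was 0.28 (SE 0.230). Its 4 introns all averaged under 2% retention, with the smallest p at intron 3 (chr22:29740731-29742417, log2 change 1.34, SE 0.961, edgeR adjusted p = 1) and the highest retention at the 18300 nt intron 1 (chr22:29748572-29766871), 1.57% to 2.34% in knockdown and 1.52% and 2.21% in control.

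ZCRB1 had 95.8 and 89.9 CPM in sh1, 119.9 and 103.1 CPM in sh2 and 91.0 and 83.0 CPM in control libraries. Both sh2 libraries were above both controls and 1 sh1 library was not. The log2 fold change was 0.23 (SE 0.132, edgeR adjusted p = 0.660), at 0.09 with sh1 and 0.36 with sh2, and the sh1 over sh2 difference of -0.26 (SE 0.152) was not called. Intron 1 (chr12:42324105-42325923) was retained at 0.452% and 0.369% in sh1, 0.394% and 0.876% in sh2 and 0.176% and 0.269% in control libraries (log2 change 1.14, SE 0.571, edgeR adjusted p = 1). The highest retention was at intron 7 (chr12:42313199-42313689), 2.69% to 4.80% in knockdown and 3.16% and 4.15% in control, with 1.47% of its boundary reads at the 5′ end. All 7 ZCRB1 introns lie inside a longer listed intron of the opposite strand, which had at most 2 spliced reads in any library.

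CRIPT, a small zinc-binding protein also known for binding a synaptic scaffold protein, had 42.3 and 36.8 CPM in sh1, 43.0 and 38.2 CPM in sh2 and 35.6 and 33.9 CPM in control libraries. All 4 knockdown libraries were above both controls by a narrow margin, at a log2 fold change of 0.20 (SE 0.145, edgeR adjusted p = 0.718). Its retention averaged under 1.3% in all 4 introns. The highest was intron 2 (chr2:46618839-46619626), at 1.10% to 1.53% in knockdown and 0.670% and 1.24% in control libraries, where 0.730% of 137 boundary reads lay at the 5′ end. Intron 4 (chr2:46623868-46624162) had its smallest p, on 7 boundary reads in all libraries together.

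RBM48, which acts with ARMC7 at the U6atac RNA, had 13.7 and 12.6 CPM in sh1, 13.6 and 11.1 CPM in sh2 and 16.1 and 11.8 CPM in control libraries. Its log2 fold change of -0.13 (SE 0.206) turned to 0.12 without the control replicate 1 library. Intron 3 (chr7:92532550-92534401) had its highest retention, at 5.84% and 5.68% in sh1, 3.66% and 5.68% in sh2 and 2.90% and 4.58% in control libraries, and intron 2 (chr7:92529667-92532403) its smallest p (log2 change -0.87, SE 0.797, edgeR adjusted p = 1).

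Apart from the called pair, retention in these genes was mostly low. The median over the 55 uncalled introns was 1.03% ± 0.158 in sh1, 1.17% ± 0.0848 in sh2 and 1.06% ± 0.241 in control (SD, n = 2 each). Mean retention was under 1% in 23 of them and at least 5% in 6. In 6 of the 57 introns all knockdown libraries were above both controls and in 4 they were below, beside 7.28% and 4.11% of all tested introns. The 4 had few boundary reads in all libraries together: 2 in RNPC3 intron 5 and 14, 41 and 59 in SNRNP48 introns 1, 2 and 5. The 6 had between 43 and 960. Of 27 introns with at least 100 boundary reads in all, 4 had at least 80% of them at the 5′ end and 7 at least 80% at the 3′ end. Retention at such a 1-sided intron rests on reads at 1 boundary, unlike that of RNPC3 introns 13 and 14.

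Across the 6 libraries, RNPC3 introns 13 and 14 were set beside all tested introns outside the 10 genes. The 5 most like intron 13 in retention, by root mean squared difference, lie in GAK (2 overlapping introns, 3.13 and 3.62 percentage points), CLCN6 (3.15), PAXIP1-AS2 (3.39) and DERL2 (3.56). For intron 14 they lie in DERL2 (2.96), SLC66A1 (3.4), PSMA1 (4.01), MAPK14 (4.39) and an unnamed region of chromosome 5 (4.46). The GAK intron (chr4:911788-912734) was retained at 40.6% and 25.9% in sh1, 39.1% and 23.9% in sh2 and 3.62% and 5.26% in control libraries. For the gene level of SCNM1, the nearest patterns by centred log2 CPM were those of COCH (root mean squared difference 0.0333), CD101 (0.0358), EXOSC4 (0.0370), LRR1 (0.0385) and APTX (0.0466), chosen from all genes with at least a 1.5-fold range. CD101 had few reads, at 0.284 to 0.818 CPM over the 6 libraries, beside 79.1 to 133.9 CPM for SCNM1.

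Other spliceosome genes were examined from lists of further minor spliceosome proteins, SF3b subunits, Sm proteins, shared tri-snRNP proteins and U1 and U2 proteins, 41 of whose 42 genes were tested. None was called for its level by edgeR. The unadjusted p was under 0.05 in 4, all lower with the knockdown, namely ZRSR2, the SF3b subunit PHF5A and the Sm proteins SNRPG and SNRPE, and in 0 of the 41 with a higher level, beside 3.84% lower and 4.39% higher of all genes. All 4 knockdown libraries lay below both controls in 13 of the 41 genes and above them in 1, beside 9.54% and 10% of all genes. The 41, the 4 and the 13 all include ZRSR2, the target of the shRNAs. The median log2 fold change was -0.11 over the 41 genes, from -0.26 for the Sm proteins to -0.01 for the further minor spliceosome proteins, beside 0.17 for the 10 genes. PHF5A had 25.6 and 35.7 CPM in sh1, 33.8 and 41.9 CPM in sh2 and 50.4 and 47.5 CPM in control libraries, with no overlap.

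Among 449 tested introns of these lists, 1 was called higher and 0 lower, beside 0.33% and 0.0209% of all tested introns, so the count does not stand above the general rate. It lies in SNRPE, which encodes a protein of the Sm ring shared by the U11, U12, U1 and U2 particles, at chr1:203861714-203862195 (482 nt). It was retained at 25.03% and 16.2% in sh1, 23.7% and 16.4% in sh2 and 3.78% and 6.06% in control libraries. As in RNPC3, all knockdown libraries were above both controls and the experiment 1 libraries were the higher within each shRNA (log2 change 2.31, SE 0.287, edgeR adjusted p = 2.06e-12). The controls differed in this, as the experiment 1 control was the lower in SNRPE and the higher in both called RNPC3 introns.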

How the data were processed

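Each of the 6 deposited tables lists, per intron, counts of reads at its left and right boundary, counts of reads spliced across it, a covered fraction and a retention percent, per the file headers and values. The deposited percent equals boundary reads over boundary reads plus 2 times spliced reads. The submitters' processing notes name hg19, but the positions match GRCh38: 95.6% of introns lie inside a RefSeq GRCh38.p14 gene, against 62.6% and 62.9% after a shift of 100 kb either way. The aligner, the counting program and the use of strand are not given in the sources used here, and the named library kit does not mark strand, so antisense reads cannot be told apart.

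Introns were named by position and strand (94.3% named). Retention was tested with edgeR 4.0.16 (R 4.3.3) quasi-likelihood fits on boundary and spliced counts of all 6 libraries, with library as a factor, equal offsets and a mean of at least 20 reads, leaving 3 residual degrees of freedom. Spliced counts of each gene's non-overlapping introns were added up, leaving out 4481 introns whose counts repeat those of a neighbouring gene, and tested with edgeR after TMM scaling (factors 0.973 to 1.02) and its standard filter on low counts. P-values were Benjamini-Hochberg adjusted over all introns or genes tested and called at 0.05. Single ratios had an exact two-sided permutation test (scipy 1.17.1). DESeq2 1.42.0, other filters and offsets, the smaller boundary count doubled, each library left out and a replicate block were tried. The fitted fold change of an intron with few boundary reads depends on the prior count. Each SE was derived as the absolute log2 change divided by the square root of the F statistic of its edgeR test. It is unreliable where the change is near 0, as at RNPC3 intron 5 between the shRNAs (log2 change 0.0063, SE 4503).

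The members and lists were chosen with earlier results of these data known, and the choice of members named RNPC3 intron 13 by position. Introns named are those called, the neighbours of called ones and, for each gene, those with the smallest p and the highest mean retention; list genes named are those called or with the smallest p, and others were chosen after their values were seen. The titles number the experiments, and same-numbered libraries deviated together (correlation 0.183 to 0.285 over the 3 pairs of groups), so the numbers were taken to pair the libraries.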

Additional observations from a re-analysis of the deposited data

How the results depend on the processing

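The count of called introns in the 10 genes, 2 over both shRNAs and with each shRNA, became 0 in all 3 contrasts when the smaller boundary count, doubled, was used. With a mean covered fraction of at least 0.95 it was 1 over both shRNAs, 1 with sh1 and 0 with sh2. With a mean of at least 50 reads it was 1 with sh1 and 0 with sh2, and with no filter 1 with sh2. Leaving out 1 library gave 0 to 2 calls over both shRNAs, 0 to 2 with sh1 and 0 to 2 with sh2. The log2 change stayed above 0 for RNPC3 introns 13 and 14 in all these settings, from 1.97 to 3.16 and from 1.89 to 3.25. With the replicate block, which pairs libraries of 1 experiment, the counts were 2, 2 and 2 and no call of the 10 genes changed. Over all tested introns 443 higher and 28 lower calls became 90 and 2 by the doubled smaller count, 208 and 4 of 39971 introns tested, in place of 134078, with the covered fraction minimum and 245 and 24 without the control replicate 2 library. Offsets from column totals moved the median over all introns to 0.0009 over both shRNAs, against 0.08 with equal offsets. The sh2 median moved to 0.0029, against 0.16 with equal offsets.

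No setting called any of the 10 genes for its spliced RNA. With libraries left out, log2 fold changes changed sign for RNPC3 (-0.063 to 0.38), SNRNP25 (-0.12 to 0.14) and RBM48 (-0.33 to 0.12), and SNRNP25 was at 0.0010 with repeated introns kept. The cause of these differences was not tested. With 1 library left in a group, that library is assumed to vary like the others. Boundary reads limit the precision: several introns had under 10 in all libraries together.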
